A study of Mus musculus with 27 samples.

Results

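The genes described here encode enzymes of the tricarboxylic acid (TCA) cycle other than complex II: Cs, Idh1, Idh2, Idh3a, Ogdh, Suclg1, Sucla2, Fh1 and Mdh2. They were taken by name, as 9 of the 50559 genes in the deposited count table, by a rule that uses no measured value, although earlier results of these data were known when it was set. All 9 passed the filter on low counts, which left 13614 genes to test, with 167 counts or more in every library of batch 1 (below).

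Transcripts were counted by 3′ RNA-seq in macrophages grown from bone marrow of wild-type (WT) mice and of mice lacking TRAP1 (TRAP1 KO), both C57BL/6 females aged 3 to 4 months by the study's methods. Cells were kept as unpolarized Mφ (M0 in the labels) or turned into M2 cells by 24 h with 10 ng/mL IL-4. Both were then kept for 48 h, with a change at 24 h, in medium conditioned by cells of a malignant peripheral nerve sheath tumor (MPNST-CM) or in DMEM, called control medium below. That made 8 groups of 3 libraries in batch 1, and 3 more libraries, each labelled replicate 4, form batch 2. The batch 1 libraries are numbered 1 to 3, except those of WT M2 cells in control medium, which are numbered 2 to 4. All cells matured in medium from L929 cells, a source of M-CSF, and whether each library came from its own mouse is not stated, so p-values measure the spread between libraries.

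TRAP1 is a chaperone of the mitochondrial matrix that is known to bind and inhibit succinate dehydrogenase, the complex II enzyme that sits among the enzymes described here. Trap1 itself had 83 to 144 counts in the 12 WT libraries of batch 1 and 0 counts in the 12 TRAP1 KO libraries, where a count of 0 allows up to 3. Xist, the noncoding RNA of X inactivation, was at 254 to 504 CPM (counts scaled to a common library size) in WT in batch 1. In TRAP1 KO it was at 0 to 1.14 CPM, which is at odds with the females that the methods name for both genotypes. Genotype cannot be told apart there from Xist level or from a difference in sex. In batch 2, both libraries labelled TRAP1 KO had Xist, at 308 and 404 CPM, and their Trap1 was at 0 and 0.191 CPM. Values below are from batch 1, which was set by the rule that named the genes and not chosen from Xist. Those of batch 2 are given apart. Summed macrophage markers were at 7829 to 12100 CPM in every group, while neutrophil, B cell, T cell, dendritic, mast or basophil, fibroblast, erythroid and Schwann lineage markers reached at most 19.98 CPM in sum. The IL-4 markers Arg1, Retnla, Chil3 and Mrc1 summed to 2629 to 4345 CPM in M2 and to 681 to 2665 CPM in Mφ, where the highest values were in TRAP1 KO cells exposed to MPNST-CM.

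The TCA cycle oxidizes acetyl groups in the mitochondrial matrix, and its intermediates also leave it, citrate for lipid synthesis and 2-oxoglutarate and succinate as signals that act on dioxygenases. Citrate synthase, encoded by Cs, starts the cycle, and isocitrate is then oxidized to 2-oxoglutarate by an NAD-dependent enzyme whose catalytic subunit is Idh3a. Idh2 encodes a mitochondrial enzyme that uses NADP for the same step, and Idh1 its relative in the cytosol and peroxisomes, so Idh1 lies outside the mitochondrial cycle. Ogdh encodes the first component of the 2-oxoglutarate dehydrogenase complex, Suclg1 the α subunit of succinyl-CoA ligase and Sucla2 its ADP-forming β subunit, Fh1 fumarase, and Mdh2 the malate dehydrogenase of the matrix. Macrophages treated with IL-4 are known for a high oxidative metabolism.

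The promoters of Idh1, Idh2 and Mdh2 are shown because the values of these genes moved with medium or genotype in more comparisons than those of the other members. Each sequence is the 250 bases before a transcription start in RefSeq (mouse build GRCm38.p6, while the submitters' processing notes name mm39), read 5′ to 3′ along the gene. Capitals mark GCGTG, a core to which hypoxia-inducible factors can bind.

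Idh1, chr1:65186480-65186729, minus strand: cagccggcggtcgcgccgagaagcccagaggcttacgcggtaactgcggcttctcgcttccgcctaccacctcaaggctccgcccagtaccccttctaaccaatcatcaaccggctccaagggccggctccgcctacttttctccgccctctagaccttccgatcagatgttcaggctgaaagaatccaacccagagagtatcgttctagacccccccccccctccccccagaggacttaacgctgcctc
Idh2, chr7:80115351-80115600, minus strand: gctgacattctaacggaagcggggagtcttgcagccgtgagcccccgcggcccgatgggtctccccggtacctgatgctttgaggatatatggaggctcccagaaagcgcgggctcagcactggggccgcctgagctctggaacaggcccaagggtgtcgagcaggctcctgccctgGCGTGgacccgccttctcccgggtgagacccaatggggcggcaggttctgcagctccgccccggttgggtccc
Mdh2, chr5:135778399-135778648, plus strand: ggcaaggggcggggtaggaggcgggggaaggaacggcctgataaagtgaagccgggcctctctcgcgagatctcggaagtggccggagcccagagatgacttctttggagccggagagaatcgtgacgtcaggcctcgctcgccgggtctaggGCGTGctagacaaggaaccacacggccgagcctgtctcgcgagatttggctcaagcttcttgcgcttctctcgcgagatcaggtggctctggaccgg

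Windows of this kind were found for 8 of the 9 members, and Idh3a had no entry. Ogdh has several annotated starts and Idh1 has another besides the one shown. On either strand, GCGTG was present in 9 of the 14 windows of these members, overlapping windows of Ogdh among them, and in 28.2% of all 32851 windows. By gene, 6 of the 8 members had it (Idh1 at its other start, Idh2, Ogdh, Suclg1, Fh1 and Mdh2). The share by gene over all genes was not computed. The related core ACGTG was in 6 of the 14 windows, all of them of Ogdh, and in 16.6% of all windows. Of the Ogdh windows, 3 hold it within CACGTG (6.02% of all windows). The estrogen-related receptor sequence AAGGTCA (4.08% of all windows) was in no member's window. These are matches of letters and no binding was measured.

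Across the 8 groups, Idh3a varied most and Sucla2 least. The highest group mean of Idh3a was 2.67 times the lowest, followed by Idh2 (2.16 times), Mdh2 (2.05), Idh1 (1.88), Fh1 (1.504), Suclg1 (1.502), Cs (1.47), Ogdh (1.36) and Sucla2 (1.23). Cs, Idh3a, Ogdh, Suclg1 and Mdh2 were highest in WT M2 cells in control medium, at 209 ± 5.46, 69.7 ± 2.54, 102 ± 2.75, 134 ± 3.57 and 314 ± 4.81 CPM (SD, n = 3). In Suclg1 and Mdh2 this group did not overlap with the next in order, WT M2 cells exposed to MPNST-CM. In Cs it did, and in Idh3a and Ogdh it overlapped with WT Mφ exposed to MPNST-CM, which came next there. Idh2 followed another order. Its highest mean was in WT Mφ exposed to MPNST-CM (81.6 ± 3.90 CPM) and its lowest in TRAP1 KO M2 cells exposed to it (37.8 ± 0.398 CPM), with no overlap between that lowest group and the next, TRAP1 KO Mφ in MPNST-CM. Idh1 was lowest in WT Mφ in control medium (274 ± 3.86 CPM), apart from all other groups, and highest in TRAP1 KO M2 cells in control medium (516 ± 23.2 CPM), which overlapped with WT M2 cells in MPNST-CM. For Sucla2 and Fh1, all neighbouring groups in the order of means overlapped.

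**Figure D1:**
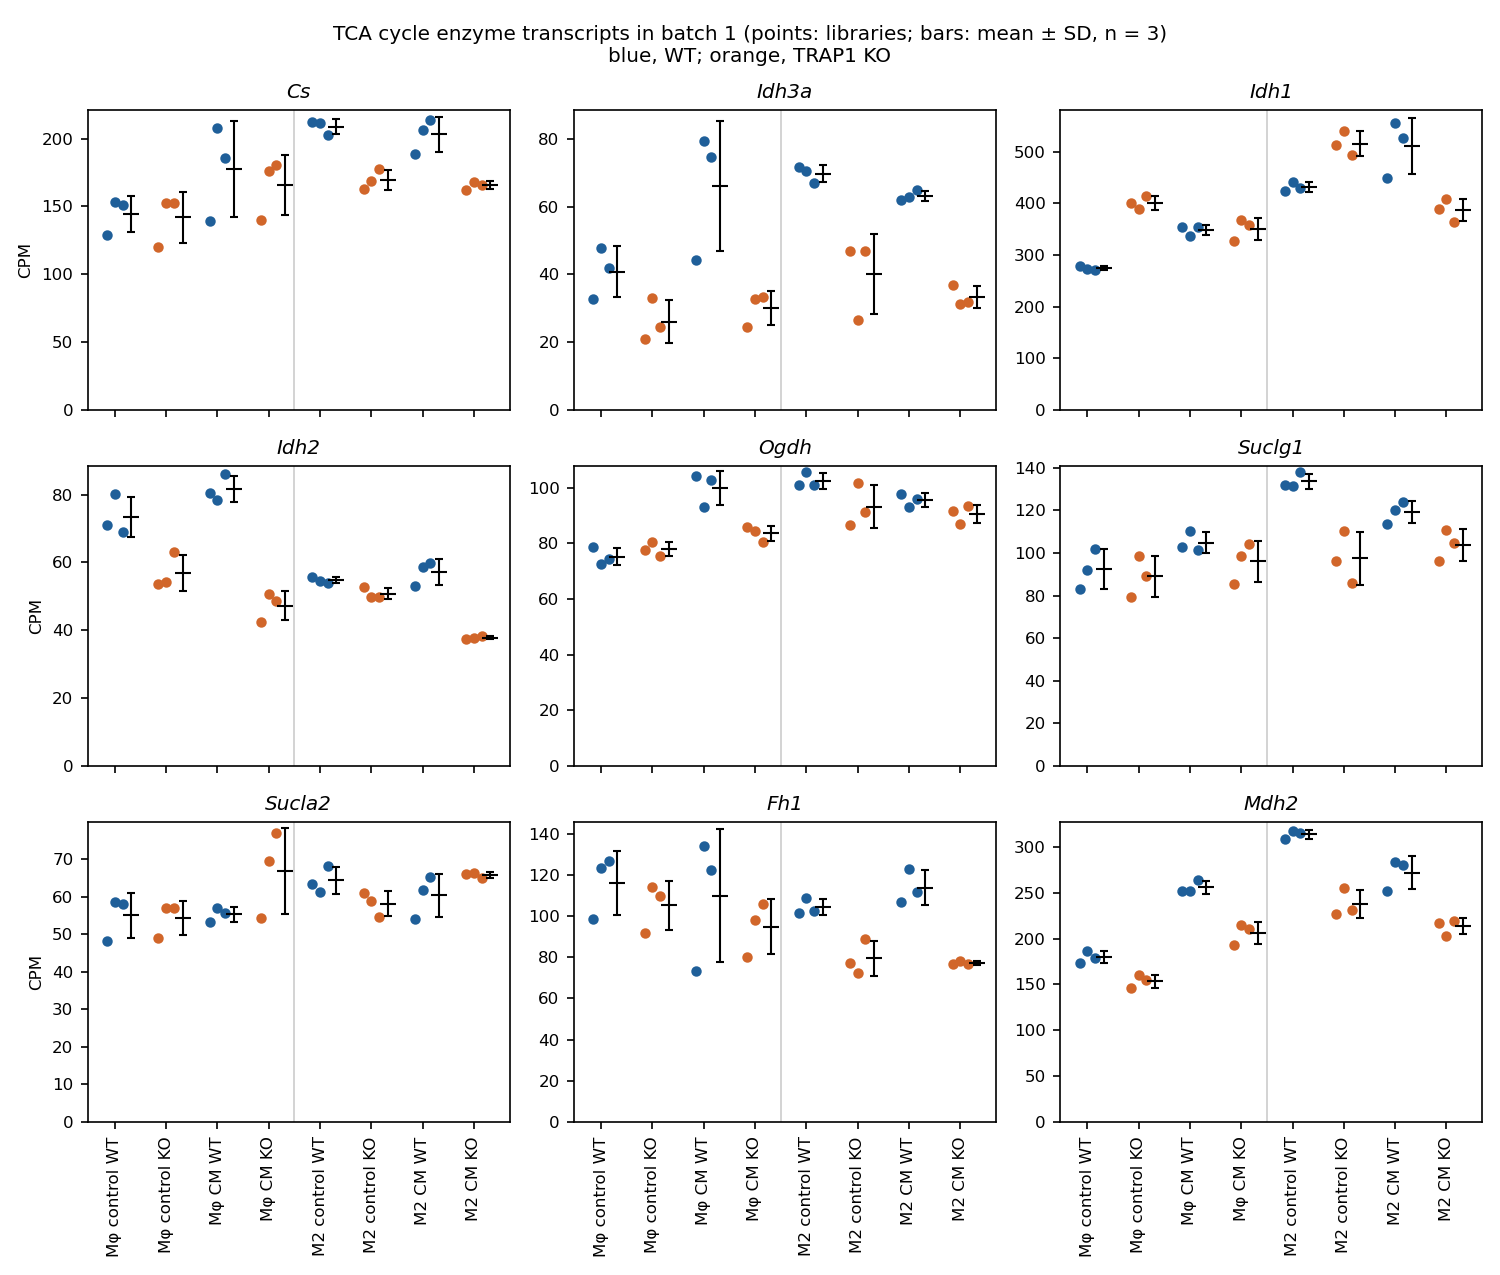
Each panel plots 1 gene, with the 8 groups of batch 1 on the x axis and CPM on the y axis, points for libraries (blue for WT, orange for TRAP1 KO) and black bars for the mean ± SD (n = 3). The TRAP1 KO mean of Idh3a lies under the WT mean in every condition, and 1 library of WT Mφ in MPNST-CM lies under the other 2 in Cs, Idh3a and Fh1.

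Replicate 1 stood apart in all 4 Mφ groups and in WT M2 cells exposed to MPNST-CM. Over all genes, the chi-square per degree of freedom of replicate 1 against replicates 2 and 3 was 16.04 to 26.5 in the Mφ groups and 33.6 and 37.4 in that M2 group, beside 2.11 to 3.42 between replicates 2 and 3 of these 5 groups. Replicate 1 was the lowest library of each Mφ group for Cs, Idh3a, Fh1, Sucla2 and Mdh2, with the widest gaps in WT Mφ exposed to MPNST-CM for Idh3a and Fh1. There Cs was at 139, 208 and 186 CPM in replicates 1 to 3, Idh3a at 44.1, 79.4 and 74.5 CPM and Fh1 at 73.2, 134 and 123 CPM. Idh1 was close across the same libraries (353, 337 and 353 CPM). With these 5 libraries removed, an alternative added after the data were seen, 44 of 48 calls of members over all comparisons below were kept and 16 were added. Among those added were Fh1, lower in M2 than in Mφ in control medium in WT (log2 fold change -0.25, adjusted p = 0.0109 in the same edgeR test) and in TRAP1 KO (-0.49, 5.68e-06), and Cs, Suclg1 and Fh1 in genotype comparisons given below. The Idh1 and Idh2 calls for MPNST-CM in TRAP1 KO Mφ were lost (adjusted p = 0.0679 and 0.0508), as were those of Mdh2 for MPNST-CM in WT M2 (0.380) and of Idh3a for M2 in TRAP1 KO in control medium (0.0651). The median coefficient of variation within a group ranged from 3.49% for Ogdh to 17.4% for Idh3a.

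M2 cells were compared with Mφ to see how polarization with IL-4 moves the enzymes. In WT cells in control medium, 6 of the 9 genes were higher in M2 and 1 was lower, against a background of 37.2% of all genes tested (19.1% higher and 18.1% lower; edgeR's quasi-likelihood test with Benjamini-Hochberg adjustment over all genes, adjusted p under 0.05). The median log2 fold change of the 9 was 0.53, and -0.03 over all genes. In bulk samples, fewer cells of a type and less RNA per cell cannot be told apart. Mdh2 was at 173, 186 and 179 CPM in Mφ and at 308, 317 and 315 CPM in M2, a log2 fold change of 0.81 (SE 0.07, adjusted p = 9.17e-10). The groups lie far apart, and the lowest M2 library is above every Mφ library. Idh3a went from 32.9, 47.7 and 42.04 CPM to 71.7, 70.6 and 66.8 CPM, by 0.77 (SE 0.22, adjusted p = 0.00781). Idh1 went from 278, 274 and 271 CPM to 423, 442 and 430.0 CPM, by 0.65 (SE 0.07, adjusted p = 6.85e-08). Both genes were higher in all 3 M2 libraries than in any Mφ library. Cs and Suclg1 each rose by 0.53 (adjusted p = 0.000709 and 0.000104 in the same test), and Ogdh by 0.45 (SE 0.08, adjusted p = 3.11e-05). Idh2 alone fell, from 71.0, 80.1 and 69.0 CPM to 55.7, 54.5 and 54.1 CPM, a log2 fold change of -0.42 (SE 0.09, adjusted p = 0.000424). The remaining genes did not pass. Sucla2 had a log2 fold change of 0.23 with a 95% interval of 0.01 to 0.44, and Fh1 of -0.15 with -0.46 to 0.15. These 7 calls held whichever of the 6 batch 1 libraries compared was left out. With the libraries of batch 2 in the fit, 21 of the 48 calls over all comparisons were kept. What is said below to hold without any 1 library refers to the batch 1 libraries of the groups compared. Libraries of other groups were not left out. The summed transcripts of the mitochondrial genome moved alongside, from 25356 to 30660 CPM in these Mφ libraries to 50712 to 56296 CPM in these M2 libraries, and their part in the result was not tested.

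In TRAP1 KO cells in control medium, 4 genes were higher in M2 and 0 lower (background 28.5%, with 15.6% higher and 12.9% lower; median 0.26 for the 9 genes and -0.03 over all). Mdh2 rose from 146, 160.1 and 154 to 226, 255 and 231 CPM, by 0.63 (SE 0.07, adjusted p = 1.15e-07) on the log2 scale. Idh1 rose from 399.6, 388 and 414 to 513, 539.9 and 494 CPM, by 0.36 (SE 0.07, adjusted p = 0.000394). Neither gene overlapped between the groups in batch 1. Idh3a and Ogdh also passed, with log2 fold changes of 0.62 (SE 0.23, adjusted p = 0.0477) and 0.26 (SE 0.08, adjusted p = 0.0112), but these calls hung on single libraries. The Ogdh call was lost without M2 replicate 2 (adjusted p = 0.0778), and the Idh3a call without replicate 1 or 3 of either group, where its adjusted p reached 0.188. Neither Idh1 nor Idh3a passed with the libraries of batch 2 in the fit, at 0.12 and 0.39 (adjusted p = 0.785 and 0.386 in edgeR's test). Idh2 had a log2 fold change of -0.17 (interval -0.34 to 0.01) and did not pass.

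With MPNST-CM in both groups, fewer of the 9 genes passed. In WT, 1 of the 9 genes was higher and 1 lower (background 24.9%, with 11.9% higher and 13% lower; median 0.09, and -0.05 over all genes). Idh1 rose from 353, 337 and 353 to 449.8, 556 and 525 CPM, by 0.55 (SE 0.07, adjusted p = 2.23e-06), and Idh2 fell from 80.5, 78.4 and 85.9 to 52.9, 58.7 and 59.9 CPM, a log2 fold change of -0.51 (SE 0.09, adjusted p = 6.82e-05). The groups did not overlap in either gene, and both calls held without any 1 library. Mdh2 had a log2 fold change of 0.09 (interval -0.05 to 0.23) and Idh3a of -0.06 (-0.48 to 0.35). In TRAP1 KO, Idh2 alone passed, lower in M2 by -0.32 (SE 0.09, adjusted p = 0.0200), beside a background of 11.2% (6.71% higher and 4.47% lower) and a median of 0.05 for the 9 genes (0.01 over all). That call held only when M0 replicate 1 was the library left out, and its adjusted p reached 0.122 otherwise. The difference between the media in the M2 effect was not tested.

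**Figure D2:**
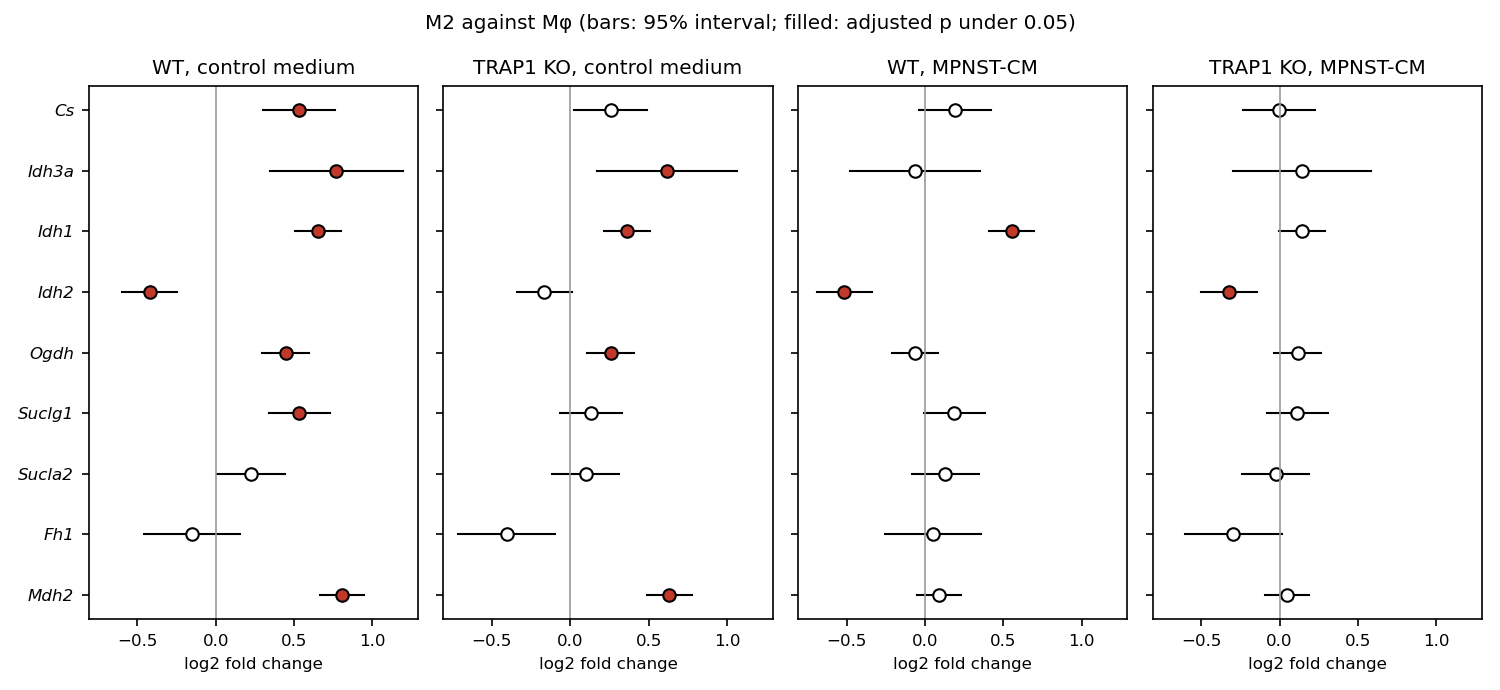
Panels show the log2 fold change of M2 over Mφ (x axis) for each gene (y axis) in 4 settings, with 95% intervals as lines and filled circles for an adjusted p under 0.05. In control medium the filled circles lie mostly to the right of 0, up to 0.81 for Mdh2 in WT, and with MPNST-CM they are down to Idh1 and Idh2 in WT and Idh2 in TRAP1 KO.

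Exposure to MPNST-CM was compared with control medium within each cell type and genotype. These comparisons share their groups with those above, WT Mφ in control medium for example. In WT Mφ, 4 of the 9 genes were higher and 0 lower (background 21.2%, with 11.3% higher and 9.96% lower; median 0.30, and -0.02 over all genes). Mdh2 went from 173, 186 and 179 to 252, 252 and 264 CPM, a log2 fold change of 0.51 (SE 0.07, adjusted p = 8.36e-06). Ogdh went from 78.5, 72.7 and 74.3 to 104, 92.9 and 103 CPM, by 0.41 (SE 0.08, adjusted p = 0.000251). Idh1 went from 278, 274 and 271 to 353, 337 and 353 CPM, by 0.34 (SE 0.07, adjusted p = 0.00140). For these genes every library in MPNST-CM was above every control library, and the calls held without any 1 of them. Idh3a rose by 0.69 (SE 0.22, adjusted p = 0.0262), with overlap between the groups (32.9, 47.7 and 42.04 CPM in control medium), and lost the call without replicate 1 or 3 of control medium or replicate 2 or 3 of MPNST-CM (adjusted p up to 0.125). Cs had a log2 fold change of 0.30 (interval 0.07 to 0.53, adjusted p = 0.0747) and passed when replicate 1 in MPNST-CM was left out (log2 fold change 0.45, adjusted p = 0.00388). In Mφ same-numbered libraries deviated together, with replicate 1 apart in each group. Cs passed at 0.29 when the replicate number entered the fit as a block (adjusted p = 0.00988).

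In TRAP1 KO Mφ, 2 genes were higher in MPNST-CM and 2 were lower (background 32.9%, with 14.8% higher and 18.1% lower; median 0.11, and -0.04 over all genes). Mdh2 rose from 146, 160.1 and 154 to 192, 215 and 211 CPM, by 0.43 (SE 0.07, adjusted p = 3.42e-05), and this call held without any 1 library. Idh2 fell from 53.5, 54.3 and 63.0 to 42.4, 50.7 and 48.7 CPM, by -0.27 (SE 0.09, adjusted p = 0.0226), which was lost without MPNST-CM replicate 1 or control replicate 3 (adjusted p up to 0.158). Idh1 fell from 399.6, 388 and 414 to 327, 367 and 358 CPM. Its groups did not overlap, but its log2 fold change of -0.19 (SE 0.07, adjusted p = 0.0499) lies at the threshold and was lost without any 1 of the 6 libraries. Sucla2 rose by 0.30 (SE 0.11, adjusted p = 0.0360) with overlapping groups (49.02, 57.1 and 57.1 and 54.3, 69.6 and 76.9 CPM), lost without control replicate 1 or MPNST-CM replicate 2 or 3 (adjusted p up to 0.253). Cs had a log2 fold change of 0.22 (interval -0.01 to 0.45) and passed with the replicate block, at 0.22 (adjusted p = 0.0351).

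In M2 cells fewer genes passed. In WT M2, 1 gene was higher and 1 lower (background 24.5%, with 11.2% higher and 13.3% lower; median -0.09, and -0.03 over all). Idh1 was at 423, 442 and 430.0 CPM in control medium and 449.8, 556 and 525 CPM in MPNST-CM, a log2 fold change of 0.24 (SE 0.07, adjusted p = 0.0173) that was lost without MPNST-CM replicate 2 or 3 (adjusted p up to 0.131). Mdh2 was lower by -0.21 (SE 0.07, adjusted p = 0.0369), which held only when MPNST-CM replicate 2 was the library left out and reached an adjusted p of 0.530 otherwise. In TRAP1 KO M2, 2 genes were lower and 0 higher (background 36.8%, with 16.7% higher and 20.2% lower; median -0.04, and -0.01 over all). Idh1 fell from 513, 539.9 and 494 to 389.8, 407 and 365 CPM, by -0.41 (SE 0.07, adjusted p = 6.38e-05), and Idh2 from 52.7, 49.8 and 49.8 to 37.4, 37.7 and 38.2 CPM, by -0.42 (SE 0.09, adjusted p = 0.000515). The 2 media did not overlap in either gene, and both calls held without any 1 batch 1 library of these groups. With the 3 libraries of batch 2 in the fit, neither passed. The Idh1 value was then 0.12 and the Idh2 value -0.33 (adjusted p = 0.800 and 0.0847 in edgeR's test).

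**Figure D3:**
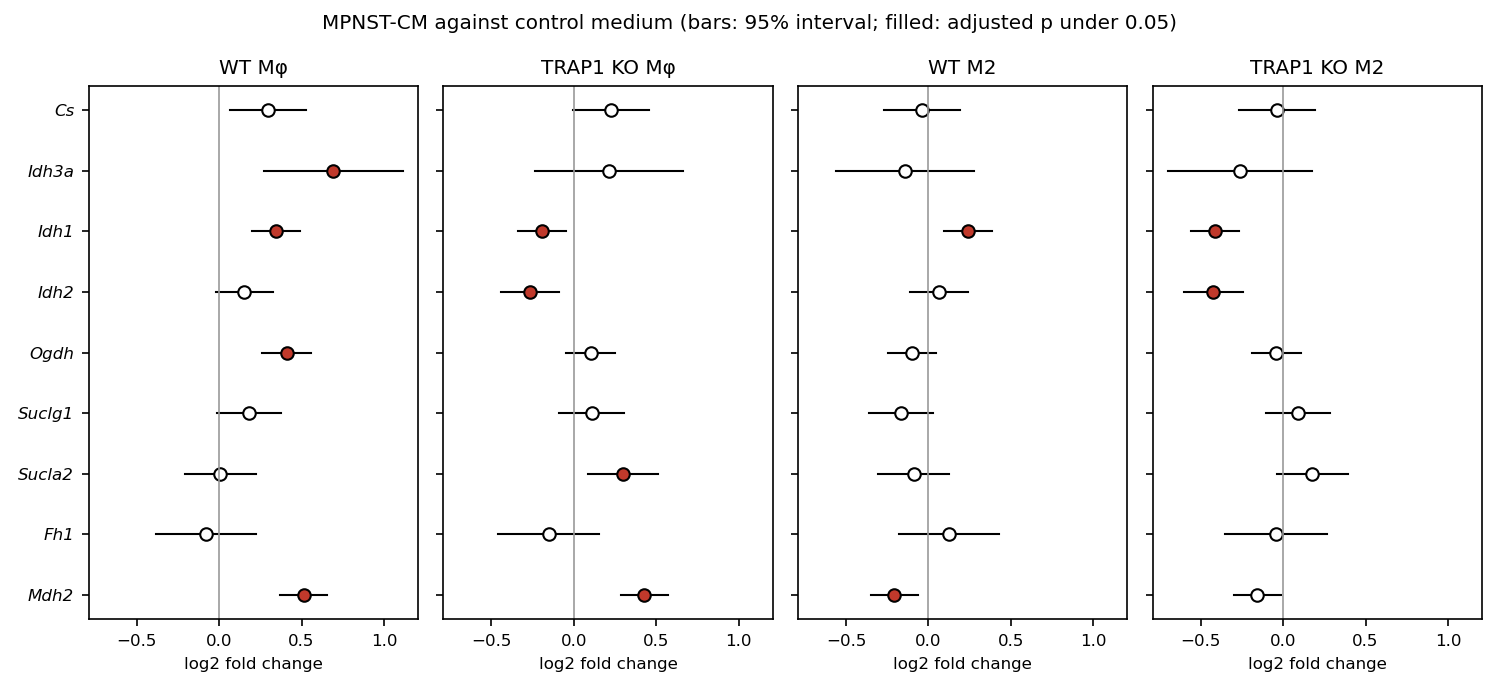
Panels show the log2 fold change of MPNST-CM over control medium (x axis) for each gene (y axis) in both cell types of both genotypes, with 95% intervals as lines and filled circles for an adjusted p under 0.05. Idh1 lies to the right of 0 in both WT panels (0.34 and 0.24) and to the left in both TRAP1 KO panels (-0.19 and -0.41).

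TRAP1 KO cells were compared with WT cells in each condition, which asks how the absence of TRAP1 goes with the enzymes around complex II. Most calls were lower in TRAP1 KO. In Mφ in control medium, 1 of the 9 genes was higher and 2 were lower (background 16.6%, with 8.64% higher and 7.97% lower; median -0.05, and 0.03 over all genes). Idh1 was higher in TRAP1 KO (399.6, 388 and 414 CPM, against 278, 274 and 271 CPM in WT), by 0.55 (SE 0.07, adjusted p = 4.92e-06). Idh2 was lower (53.5, 54.3 and 63.0 against 71.0, 80.1 and 69.0 CPM), by -0.37 (SE 0.09, adjusted p = 0.00395). Neither overlapped between genotypes, and both calls held without any 1 library. Mdh2 was lower by -0.23 (SE 0.07, adjusted p = 0.0310), lost without TRAP1 KO replicate 1 or 3 or WT replicate 2 or 3 (adjusted p up to 0.129). Idh3a had a log2 fold change of -0.65 (interval -1.09 to -0.20) and just missed the threshold (adjusted p = 0.0565). It passed without WT replicate 1 or TRAP1 KO replicate 2. With DESeq2, an alternative test, it passed at -0.67 (adjusted p = 0.0169), and with these groups alone in the edgeR fit at -0.69 (0.0261).

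In Mφ exposed to MPNST-CM, 1 gene was higher and 4 were lower in TRAP1 KO (background 38.2%, with 19.1% higher and 19.2% lower; median -0.21, and 0.04 over all genes). Idh3a was at 24.5, 32.7 and 33.5 CPM in TRAP1 KO and 44.1, 79.4 and 74.5 CPM in WT, a log2 fold change of -1.13 (SE 0.22, adjusted p = 0.000358). Idh2 was at 42.4, 50.7 and 48.7 and 80.5, 78.4 and 85.9 CPM, a log2 fold change of -0.79 (SE 0.09, adjusted p = 6.50e-08). In both genes the highest TRAP1 KO library was under the lowest WT library. Mdh2 (192, 215 and 211 against 252, 252 and 264 CPM) was lower by -0.31 (SE 0.07, adjusted p = 0.00112), and Ogdh (85.8, 84.4 and 80.5 against 104, 92.9 and 103 CPM) by -0.26 (SE 0.08, adjusted p = 0.00815). These 4 calls held without any 1 library. Sucla2 was higher by 0.27 (SE 0.11, adjusted p = 0.0475), with overlapping groups, and its call held only when TRAP1 KO replicate 1 was the library left out (adjusted p up to 0.305 otherwise). Fh1 had a log2 fold change of -0.21 (interval -0.52 to 0.09) and passed, at -0.44 (adjusted p = 0.00470), when WT replicate 1 was left out. Idh1 had a log2 fold change of 0.01 (interval -0.13 to 0.16).

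In M2 cells in control medium, 1 gene was higher and 3 were lower in TRAP1 KO (background 16.4%, with 8.56% higher and 7.87% lower; median -0.30, and 0.02 over all genes). Suclg1 was at 96.1, 110.3 and 85.9 CPM in TRAP1 KO and 132, 132 and 138 CPM in WT, a log2 fold change of -0.46 (SE 0.10, adjusted p = 0.00190). Mdh2 was at 226, 255 and 231 and 308, 317 and 315 CPM, a log2 fold change of -0.40 (SE 0.07, adjusted p = 0.000262). Both were lower in every TRAP1 KO library and held without any 1 library. Idh3a was at 46.8, 26.6 and 46.9 and 71.7, 70.6 and 66.8 CPM, by -0.80 (SE 0.22, adjusted p = 0.0151). The lowest of these TRAP1 KO values is that of replicate 2, without which the adjusted p was 0.0732. Idh1 was higher by 0.26 (SE 0.07, adjusted p = 0.0174), a call lost without any 1 of the 6 libraries (adjusted p 0.0577 to 0.153). With the libraries of batch 2 in the fit, its value was -0.02. Cs, Fh1, Idh2 and Sucla2 did not overlap between genotypes either, but missed the threshold. Their log2 fold changes were -0.30 (-0.53 to -0.07), -0.39 (-0.70 to -0.08), -0.11 (-0.29 to 0.07) and -0.15 (-0.36 to 0.07). Without the 5 libraries that stood apart, none of them in these groups but all part of the shared estimate of the spread, Cs and Fh1 passed at -0.30 and -0.40 (adjusted p = 0.000221 and 7.95e-05).

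In M2 cells exposed to MPNST-CM, 5 of the 9 genes were lower in TRAP1 KO and 0 higher (background 34%, with 17.2% higher and 16.8% lower; median -0.35, and 0.05 over all genes). Idh3a was at 37.0, 31.3 and 31.9 CPM in TRAP1 KO and 62.0, 62.8 and 64.8 CPM in WT, a log2 fold change of -0.92 (SE 0.22, adjusted p = 0.00258). Idh2 was at 37.4, 37.7 and 38.2 and 52.9, 58.7 and 59.9 CPM, a log2 fold change of -0.60 (SE 0.09, adjusted p = 8.73e-06). Fh1 was at 76.8, 78.2 and 76.8 and 107, 123 and 112 CPM, a log2 fold change of -0.56 (SE 0.16, adjusted p = 0.00774). Here the TRAP1 KO libraries lie close together and well under the WT range. Idh1 (389.8, 407 and 365 against 449.8, 556 and 525 CPM) was lower by -0.40 (SE 0.07, adjusted p = 0.000129) and Mdh2 (217, 203 and 219 against 252, 284 and 280.3 CPM) by -0.35 (SE 0.07, adjusted p = 0.000386). All 5 calls held without any 1 batch 1 library of these groups. With the libraries of batch 2 in the fit, Idh2 alone passed, while Idh1 was at -0.20 (adjusted p = 0.642), Fh1 at -0.45 (0.229), Idh3a at -0.81 (0.0535) and Mdh2 at -0.30 (0.0586). Cs had a log2 fold change of -0.29 (interval -0.52 to -0.07, adjusted p = 0.0533) and Suclg1 of -0.20 (-0.40 to -0.01). Both passed without WT replicate 1 (adjusted p = 0.0184 and 0.0369), and without all 5 libraries that stood apart, at -0.42 and -0.31 (2.30e-06 and 0.00292). Sucla2 and Ogdh had intervals that span 0, of -0.09 to 0.33 and -0.23 to 0.07.

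**Figure D4:**
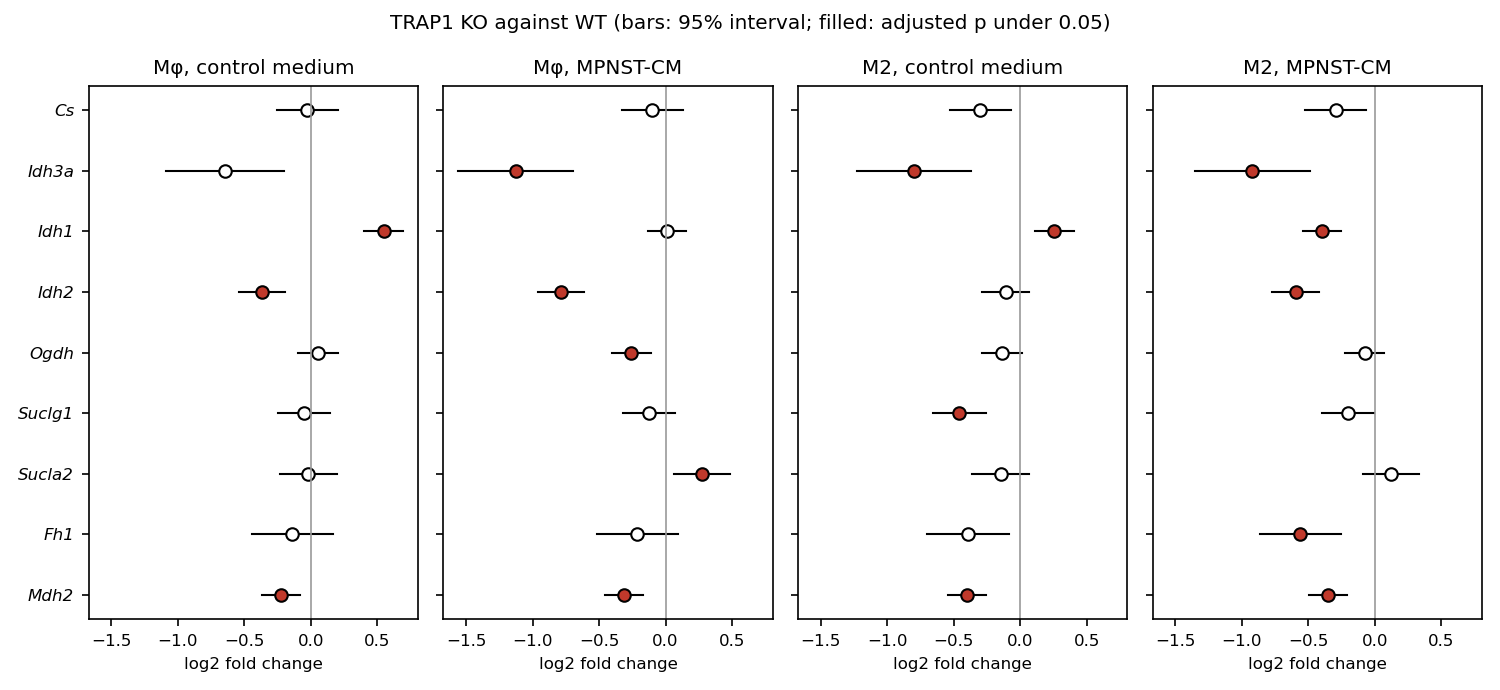
Panels show the log2 fold change of TRAP1 KO over WT (x axis) for each gene (y axis) in Mφ and M2 cells in control medium and MPNST-CM, with 95% intervals as lines and filled circles for an adjusted p under 0.05. Idh3a lies left of 0 in all 4 panels (-0.65, -1.13, -0.80 and -0.92), open in the first, while Idh1 goes from 0.55 in Mφ in control medium to -0.40 in M2 cells in MPNST-CM.

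Mdh2 was lower in TRAP1 KO in each of the 4 conditions (log2 fold changes of -0.23, -0.31, -0.40 and -0.35), and so was Idh3a in the 3 where it passed in edgeR's test. Proliferation markers moved with genotype and medium as well. Mki67, Top2a, Ccnb1, Cdk1 and Birc5 summed to 872 to 1187 CPM in WT Mφ in control medium, to 1026 to 1460 CPM in WT Mφ in MPNST-CM, and in TRAP1 KO Mφ to 394 to 509.8 CPM in control medium and 101 to 125 CPM when exposed to MPNST-CM. In M2 cells the sums were 295 to 327 and 535 to 709 CPM in WT and 354 to 374 and 136 to 139 CPM in TRAP1 KO, in the same order of media. Their part in the enzymes' differences, and that of the Xist difference between genotypes, was not tested.

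The difference between genotypes in the response to MPNST-CM was tested as the interaction of genotype and medium, the log2 fold change in TRAP1 KO minus that in WT. It passed for Idh1 and Idh2 in both cell types, in each case with the response lower in TRAP1 KO. In Mφ, 3 of the 9 genes passed, all negative (background 19.7%, with 8.17% positive and 11.5% negative; median -0.08, and -0.01 over all genes). The Idh1 response was 0.34 in WT and -0.19 in TRAP1 KO, an interaction of -0.53 (SE 0.11, adjusted p = 0.000428). That of Idh2 was 0.15 and -0.27, an interaction of -0.42 (SE 0.13, adjusted p = 0.0169). Ogdh also passed, at -0.31 (SE 0.11, adjusted p = 0.0423). The Idh1 call held without any 1 of the 12 libraries. That of Idh2 was lost without TRAP1 KO replicate 1 in MPNST-CM or without replicate 3 of TRAP1 KO control, WT control or WT in MPNST-CM (adjusted p up to 0.0700), and that of Ogdh without any of 9 libraries (up to 0.104). In M2 cells, 2 genes passed, both negative (background 20.2%, with 9.36% positive and 10.8% negative; median 0.00, and 0.02 over all genes). Idh1 had responses of 0.24 in WT and -0.41 in TRAP1 KO, an interaction of -0.65 (SE 0.11, adjusted p = 3.72e-05). Idh2 had 0.06 and -0.42, an interaction of -0.49 (SE 0.13, adjusted p = 0.00726). Both held without any 1 batch 1 library of the groups compared. For Mdh2 the interaction was -0.08 in Mφ (interval -0.29 to 0.12) and 0.05 in M2 (-0.15 to 0.25), and for Idh3a -0.48 (-1.10 to 0.14) and -0.12 (-0.73 to 0.48).

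**Figure D5:**
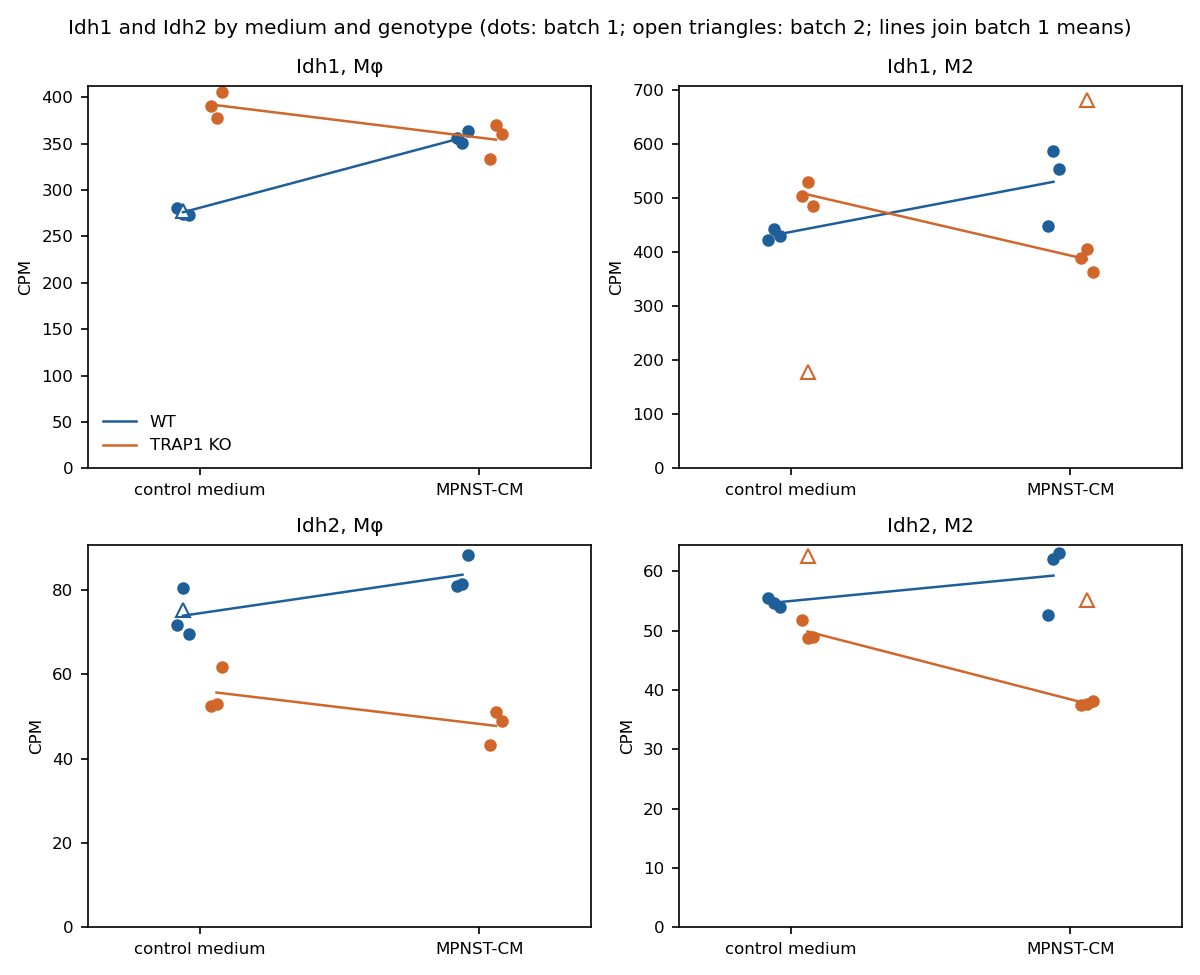
CPM, scaled over all 27 libraries (y axis), of Idh1 (top) and Idh2 (bottom) in control medium and MPNST-CM (x axis), in Mφ (left) and M2 cells (right), with dots for batch 1, open triangles for batch 2 and lines joining the batch 1 means of WT (blue) and TRAP1 KO (orange). The lines of Idh1 run upward in WT and downward in TRAP1 KO, and the Idh1 triangles of TRAP1 KO M2 cells lie at 179 and 681, outside the batch 1 range on opposite sides.

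None of these interactions passed once the libraries of batch 2 were in the fit. In values scaled over 27 libraries, Idh1 was at 179 CPM in the library labelled TRAP1 KO M2 in control medium (485 to 529 CPM in batch 1) and at 681 CPM in that labelled TRAP1 KO M2 in MPNST-CM (364 to 405 CPM in batch 1). With all 27 libraries in the fit, the Idh1 interaction in M2 cells was -0.18 (adjusted p = 0.865 in the same edgeR test) and that in Mφ -0.51 (0.459). For Idh2 they were -0.45 (0.220) and -0.39 (0.237). With batch as a covariate the 4 adjusted p ranged from 0.0662 to 0.884. Batch 2 holds no TRAP1 KO Mφ library. Its only Mφ library, labelled WT in control medium, had Idh1 at 277 CPM (273 to 280 CPM in batch 1). In Mφ the Idh1 estimate stayed close to its batch 1 value of -0.53, while its SE went from 0.11 to 0.35 with all 27 libraries.

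The other parts of the cycle gave a background for these genes. Of 5 further subunits of the cycle outside complex II (Idh3b, Idh3g, Dlst, Dld and Suclg2), 3 were higher and 1 lower in WT M2 against Mφ in control medium (37.2% of all genes passed), with a median of 0.32. Dlst, which encodes the second component of the 2-oxoglutarate dehydrogenase complex, went from 71.3 ± 5.06 to 100.2 ± 6.75 CPM (SD, n = 3), by 0.49 (SE 0.10, adjusted p = 0.000239). Suclg2, the GDP-forming β subunit of succinyl-CoA ligase and so the counterpart of Sucla2, had log2 fold changes of -0.996 (SE 0.25, adjusted p = 0.00207) in WT and -1.36 (SE 0.26, adjusted p = 0.000165) in TRAP1 KO, from means of 6.69 and 6.61 CPM. In TRAP1 KO against WT, Dlst was lower in M2 cells in control medium, with a log2 fold change of -0.32 (SE 0.10, adjusted p = 0.0244). With MPNST-CM, Idh3g (-0.62) and Idh3b (-0.44) were lower in WT M2 cells. In Mφ exposed to MPNST-CM, where the catalytic Idh3a was lower in TRAP1 KO by 1.13 on the log2 scale, the other subunits of the NAD-dependent enzyme had log2 fold changes of -0.12 for Idh3b (interval -0.33 to 0.09) and -0.07 for Idh3g (-0.28 to 0.15). The difference between the subunits was not tested. The 4 genes of complex II had 3 members lower in MPNST-CM in M2 cells of either genotype (13.3% of all genes were lower in WT and 20.2% in TRAP1 KO; medians -0.40 in WT and -0.27 in TRAP1 KO). Between genotypes, Sdha was lower in TRAP1 KO in MPNST-CM (-0.34 in Mφ and -0.27 in M2) and Sdhc was lower in M2 cells in control medium (-0.48).

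Enzymes and carriers that feed the cycle were read beside its members. Of 13 genes of pyruvate entry that were tested, 3 were higher and 4 lower in TRAP1 KO Mφ in MPNST-CM, where 38.2% of all genes passed. Among them Pcx, pyruvate carboxylase, had a log2 fold change of -3.79 on means of at most 1.35 CPM, near the limit of detection, and Pdp2, which activates pyruvate dehydrogenase, of -0.81 (and -0.99 in M2 cells). Mpc1, a subunit of the mitochondrial pyruvate carrier, was higher in TRAP1 KO in control medium in Mφ (0.68) and M2 cells (0.56). Of 10 genes of glutamine and 2-oxoglutarate supply, 4 were higher and 3 lower in Mφ of TRAP1 KO mice exposed to MPNST-CM (38.2% of all genes passed), and 4 higher and 2 lower in M2 cells (34%). Gpt2, a mitochondrial aminotransferase that yields 2-oxoglutarate, was at 16.9 ± 2.26 CPM in TRAP1 KO and 6.72 ± 0.976 CPM in WT Mφ (SD, n = 3 libraries in each group), with a log2 fold change of 1.33 (SE 0.18, adjusted p = 1.47e-06). Slc1a5, a glutamine carrier, was at 35.2 ± 1.35 CPM in TRAP1 KO and 75.1 ± 8.23 CPM in WT M2 cells in MPNST-CM, by -1.09 (SE 0.12, adjusted p = 4.93e-08). It rose in M2 against Mφ in control medium by 1.75 in WT and 1.54 in TRAP1 KO.

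Of 8 genes of citrate export, cytosolic isozymes and itaconate synthesis, 6 were lower and 1 higher in TRAP1 KO Mφ in MPNST-CM (median -0.45, with 19.2% of all genes lower and 19.1% higher), and 5 lower and 0 higher in M2 cells (median -0.33, with 16.8% lower and 17.2% higher). Me1, the cytosolic malic enzyme, which makes NADPH as Idh1 does, had log2 fold changes of -1.91 (SE 0.31, adjusted p = 1.55e-05) and -1.59 (SE 0.32, adjusted p = 0.000272). Slc25a1, the mitochondrial citrate carrier, was lower by -0.49 and -0.38, and Acod1, which makes itaconate, by -1.81 and -0.80. In control medium Acod1 was higher in TRAP1 KO Mφ (1.22) and lower in TRAP1 KO M2 cells (-1.35). Mthfd2, of mitochondrial one-carbon metabolism, rose with MPNST-CM in TRAP1 KO. It went from 29.3 ± 2.88 to 157 ± 11.7 CPM in Mφ and from 27.2 ± 2.44 to 172 ± 6.53 CPM in M2 cells (SD, n = 3 each). The log2 fold changes were 2.42 and 2.66, against 0.97 and 0.40 in WT, and the interaction was 1.45 (SE 0.13, adjusted p = 2.12e-09) in Mφ and 2.26 (SE 0.13, adjusted p = 1.30e-12) in M2. Nnt, the transhydrogenase of the inner membrane, had means of 13.4 to 25.0 CPM and fell with MPNST-CM in TRAP1 KO by -0.89 (SE 0.20, adjusted p = 0.000867) in Mφ and -0.67 (SE 0.20, adjusted p = 0.0106) in M2 cells.

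Genes of mitochondrial content and biogenesis were also read. Of 13 of them that were tested, 7 were higher and 1 lower in WT M2 against Mφ in control medium (median 0.48, with 37.2% of all genes passing), where Ppargc1b, a coactivator of mitochondrial biogenesis, had a log2 fold change of 2.85 (SE 0.18, adjusted p = 5.14e-13). In TRAP1 KO against WT, 0 higher and 5 lower passed in M2 cells in control medium (median -0.32, with 16.4% of all genes passing), and 1 higher and 3 lower in MPNST-CM (median -0.07, with 34%). Hspd1, the chaperonin of the matrix, was lower in TRAP1 KO in both M2 conditions (-0.53 and -0.92), while Hspa9, another matrix chaperone, was lower in control medium (-0.37) and higher in MPNST-CM (0.51). Of the 9 genes of the mitochondrial genome, 8 were higher and 0 lower in M2 against Mφ in control medium in either genotype (medians 0.91 in WT and 0.77 in TRAP1 KO), where 19.1% of all genes were higher in WT and 15.6% in TRAP1 KO.

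The enzymes were also compared with each other and with all genes of at least 10 CPM, as Pearson's r of log2 CPM over the 24 libraries of batch 1, which share the 8 group means. Among the members, Ogdh and Mdh2 were most alike (r = 0.879), then Cs and Suclg1 (0.835), Suclg1 and Mdh2 (0.833), Cs and Mdh2 (0.832) and Idh3a and Mdh2 (0.787). Idh1 and Idh2 had r = -0.350, and Idh2 and Sucla2 r = -0.437. Among 8196 other genes, the highest r with Cs was that of Slc25a5, an ADP/ATP carrier (0.934), and of Slc35b1 (0.899). Suclg1 was most like Cox7b and Cox5a, subunits of cytochrome c oxidase (0.941 and 0.908), and Mdh2 most like Septin11 and Ifrd1 (0.935 and 0.932). For Idh3a they were Cct6a and Ybx3 (0.914 and 0.910), for Ogdh Cyb5r3 and Ftsj3 (0.894 and 0.889), for Idh1 Lrp12 and Atp1b3 (0.943 and 0.926), for Idh2 Gmds and Anp32e (0.944 and 0.940), for Sucla2 Tmem70 and Prkar1a (0.867 and 0.844) and for Fh1 Pdcd2 and Srsf1 (0.846 and 0.844).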

How the data were processed

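Macrophage RNA was sequenced with a QuantSeq 3′ kit (75 bp reads). The authors trimmed reads with Trimmomatic, mapped them with HISAT2 (mm39 in the submitters' processing notes, another build in the methods), kept mapping qualities of 20 or more with SAMtools and counted them on genes with featureCounts. They deposited raw counts, without normalization, in 32 columns; 5 of these could not be tied to a labelled sample and were left out. Batch 1 libraries had 7037684 to 9089792 counts and batch 2 libraries 9997776 to 11152362. Strand handling in counting is not stated, and Cs, Ogdh and Suclg1 overlap noncoding genes in RefSeq, so their reads are less certain. Each transcript gives reads near its 3′ end, so levels are not compared between genes.

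Counts were tested with edgeR 4.0.16 in R 4.3.3 (TMM, filterByExpr by group, robust quasi-likelihood fit, Benjamini-Hochberg adjustment, threshold 0.05), in 1 fit of the 24 batch 1 libraries with a mean per group and 14 contrasts. The study's methods name DESeq and DESeq2, and DESeq2 1.42.0 is an alternative here. The replicate number as a block is another. Same-numbered libraries deviated together (every r over 0.1, from 0.131 to 0.492) in the 4 comparisons within Mφ and in that of WT M2 with Mφ in MPNST-CM (0.157 to 0.381), and not in the other 7. No source states a pairing. Replicate 1 stood apart in all groups of these comparisons, and a pairing cannot be told apart from that. CPM use TMM factors, log2 CPM a prior count of 2. Intervals (95%) are the estimate ± 1.96 SE. The fit was run on simulated counts of independent libraries without replicate or batch differences, so that run does not bear on such differences.

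The members, the gene lists and the comparisons were chosen with earlier results of these data known. Named beside the members are Trap1, Xist, at most 4 genes per list and comparison among the largest changes that passed, Nnt, and the 2 genes most like each member. The 24 replicate pairs of batch 1 differed by more than sampling noise (chi-square per degree of freedom 2.11 to 37.4).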

Additional observations from a re-analysis of the deposited data

Results flagged for a closer look

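In values scaled over 27 libraries, the replicate 4 libraries of batch 2 lay far from batch 1 in 5 of 27 tests for a single distant library, where chance gives about 1.35. In the library labelled TRAP1 KO M2 in MPNST-CM, Cs was at 202 CPM (162 to 167 CPM in the other 3 libraries), Idh1 at 681 CPM (364 to 405), Idh2 at 55.1 CPM (37.4 to 38.1) and Fh1 at 113 CPM (76.6 to 77.8). In the library labelled TRAP1 KO M2 in control medium, Idh1 was at 179 CPM (485 to 529). Both carried Xist, which the TRAP1 KO libraries of batch 1 lacked or held at up to 1.14 CPM.

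The response to MPNST-CM differed between TRAP1 KO and WT, by the interaction term in edgeR, for Idh1 (-0.53, adjusted p = 0.000428), Idh2 (-0.42, 0.0169) and Ogdh (-0.31, 0.0423) in Mφ, and for Idh1 (-0.65, 3.72e-05) and Idh2 (-0.49, 0.00726) in M2 cells. These values are from batch 1. There, in WT cells of each type, Idh1 was higher in all 3 MPNST-CM libraries than in any control library. In TRAP1 KO cells of each type it was lower in all 3. The batch 2 libraries labelled TRAP1 KO M2, whose Idh1 values are given above, had the opposite order. With batch 2 added to the fit, no member passed for either interaction.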

How the results depend on the processing

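Of 48 calls of members over the 14 comparisons, 33 held whichever batch 1 library of the compared groups was left out and 15 did not. A library was left out only for comparisons that use its group. DESeq2 kept 46 and added 2, and median-of-ratios factors kept 45 and added 1. The compared groups alone kept 39 and added 5, and no filter on low counts kept 35 and added 6. Those added in DESeq2's test were Idh3a for genotype in Mφ in control medium (adjusted p = 0.0169) and Cs for genotype in M2 in MPNST-CM (0.0305). Those lost were Idh1 for MPNST-CM in TRAP1 KO Mφ (0.0755) and Sucla2 for genotype in Mφ in MPNST-CM (0.0682). The largest losses came with batch 2. All 27 libraries kept 21 calls and batch as a covariate 23, with larger standard errors, and the cause was not tested. Idh1 then reversed for MPNST-CM in TRAP1 KO M2 (0.12, and 0.13 with the covariate) and for TRAP1 KO against WT in M2 in control medium (-0.023, and -0.016 with the covariate). Every library has at least 164 counts of each member, so depth does not limit their detection.

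With all 27 libraries, the number of members passing for MPNST-CM was 2 (WT Mφ), 1 (TRAP1 KO Mφ), 0 (WT M2) and 0 (TRAP1 KO M2), for genotype 1 in Mφ in control medium and 1 in M2 in MPNST-CM, for M2 against Mφ 2 (TRAP1 KO in control medium), 1 (WT in MPNST-CM) and 0 (TRAP1 KO in MPNST-CM), and for both interactions 0. The share of all genes that passed fell too, to 1.31% (interaction in M2) to 26.9% (M2 against Mφ in WT in control medium). With the covariate the numbers in the same order were 2, 2, 0, 1, 1, 2, 2, 1, 0 and 0. The compared groups alone gave 2 for TRAP1 KO Mφ, 1 for WT M2 and 1 for the interaction in Mφ. No filter gave 1, 1 and 1 for these, 3 for genotype in Mφ in MPNST-CM and 0 for M2 in TRAP1 KO in MPNST-CM. Median-of-ratios factors gave 1 for WT M2. Removing the 5 libraries numbered 1 that stood apart, chosen after seeing the data, kept 44 calls and added 16, and gave 4 for M2 against Mφ in WT in MPNST-CM and 2 for the same in TRAP1 KO.

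Leaving out 1 library gave 3 to 5 (WT Mφ), 2 to 3 (TRAP1 KO Mφ), 0 to 1 (WT M2) and 2 to 2 (TRAP1 KO M2) for MPNST-CM, 2 to 4, 4 to 5, 2 to 3 and 5 to 7 for genotype (Mφ in control medium and in MPNST-CM, then M2), 7 to 7, 3 to 4, 2 to 2 and 0 to 1 for M2 against Mφ (control medium in WT and TRAP1 KO, then MPNST-CM), and 1 to 3 and 2 to 2 for the interactions in Mφ and M2.

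Over all groups, same-numbered libraries were only weakly alike, and whether they were paired cannot be told. Deviations from the group means correlated at a mean r of 0.107 in 77 same-numbered pairs (lowest -0.214) and -0.0451 in 175 others. The replicate block kept 45 of the 48 calls and added 5, and gave 1 member in WT M2 with MPNST-CM. It lost Mdh2 for MPNST-CM in WT M2 (adjusted p = 0.0959), Idh3a for genotype in M2 in control medium (0.0632) and Idh3a for M2 in TRAP1 KO in control medium (0.0564). Besides Cs for MPNST-CM in Mφ of either genotype, it added Cs for genotype in M2 in MPNST-CM (0.00563) and, for M2 in TRAP1 KO in control medium, Cs (0.0138) and Fh1 (0.00943).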
